A study of Homo sapiens with 6 samples.

Results

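The RBM genes are human genes named for an RNA-binding motif, and their chromatin was examined in U937 cells depleted of neutrophil serine proteases and in control U937 cells. Members were all protein-coding genes on chromosomes 1-22 and X whose symbol is RBM followed by a number, with or without letters, leaving out RBMX and RBMY. The rule gave 37 of 19974 protein-coding genes. Most of the encoded proteins hold an RNA recognition motif, a small fold that lies against single-stranded RNA. Among them are parts of the spliceosome, regulators that choose exons, adaptors of the complex that writes N6-methyladenosine (m6A) on RNA, adaptors that hand RNA to the nuclear exosome, and factors of ribosome assembly. Splicing proteins are used by nearly all cells, whereas several RBM proteins act in heart, muscle, brain or germ cells.

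U937 is a monocyte-like line derived from a histiocytic lymphoma. In the 3 ΔNSPs clones, which the series describes as independent, CTSG, ELANE and PRTN3, which encode neutrophil serine proteases, were depleted at once with transduced plasmids. The 3 control lines were transduced with control plasmids. All 6 cultures were kept under geneticin, treated with DNase, washed and cryopreserved with DMSO before ATAC-seq, in which a transposase cuts open chromatin and tags the cut ends for sequencing. Each ΔNSPs library was made from 1 clone, so that differences between clones and between cultures cannot be told apart.

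Each library is represented by its own peak list on build GRCh38. The fold enrichment of a peak over its local background and its −log10 p and −log10 q are the authors' values. Clones 1, 2 and 3 had 14262, 24981 and 2188 peaks on chromosomes 1-22, X and Y, and control lines 1, 2 and 3 had 13, 4 and 2. Read totals were not given, so depth is unknown, and a gene without a listed peak has no value. The lowest −log10 p in a list was 4.89, 4.86 and 5.75 in clones 1, 2 and 3, against 7.45, 7.79 and 8.0 in control lines 1, 2 and 3, so that entry to a control list took a smaller p. A peak within 1000 bp of either end of a gene is called a gene-end peak, and a gene is called recurrent where 2 or more clones and none of the control lines held such a peak. Of 12 monocytic markers, ITGAM and FCGR2A were recurrent (against 23.3% of all protein-coding genes) and 5 (FCGR1A, ITGB2, LYZ, MPO and SPI1) had no gene-end peak in any library (against 53.4%). Of 11 markers of T, B, epithelial, hepatic and erythroid cells, 1 (CD3E) was recurrent (against 23.3%). Another 9 of the 11 had no gene-end peak in any library (against 53.4%). The recurrent shares of the monocytic and the other markers, 16.7% and 9.09%, were both below that of all genes.

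The 250 bases upstream of the annotated start are shown here for the RBM genes on which the results turn, read in the direction of the gene from RefSeq (GRCh38.p14). The first 4 had a gene-end peak in all 3 clones. RBM12 lies at chr20:35664901-35665150, minus strand, RBM15 at chr1:110339127-110339376, plus strand, RBM15B at chr3:51391035-51391284, plus strand and RBM34 at chr1:235161251-235161500, minus strand. RBM42 (chr19:35628786-35629035, plus strand) and RBM8A (chr1:145927485-145927734, minus strand) had the highest −log10 q in clone 2 among the genes present in 2 clones. Capitals mark the letters searched for, on either strand: CCGGAAGT (ETS), TGACGTCA (the cAMP response element, CRE), GGGCGG (SP), CCAAT (the CCAAT box) and TATAAA (the TATA box), and the motifs of NRF1 and YY1. Where 2 motifs touch or overlap, they appear as 1 run of capitals.
RBM12: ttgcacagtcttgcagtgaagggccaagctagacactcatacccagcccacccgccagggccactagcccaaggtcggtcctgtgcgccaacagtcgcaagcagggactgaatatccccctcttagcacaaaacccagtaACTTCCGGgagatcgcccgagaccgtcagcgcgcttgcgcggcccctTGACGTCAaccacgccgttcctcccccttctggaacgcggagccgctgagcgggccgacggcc
RBM15: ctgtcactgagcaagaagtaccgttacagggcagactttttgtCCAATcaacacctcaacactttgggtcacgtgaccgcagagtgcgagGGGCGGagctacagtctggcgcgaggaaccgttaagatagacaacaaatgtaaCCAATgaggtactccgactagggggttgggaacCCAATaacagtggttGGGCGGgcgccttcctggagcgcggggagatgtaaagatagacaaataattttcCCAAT
RBM15B: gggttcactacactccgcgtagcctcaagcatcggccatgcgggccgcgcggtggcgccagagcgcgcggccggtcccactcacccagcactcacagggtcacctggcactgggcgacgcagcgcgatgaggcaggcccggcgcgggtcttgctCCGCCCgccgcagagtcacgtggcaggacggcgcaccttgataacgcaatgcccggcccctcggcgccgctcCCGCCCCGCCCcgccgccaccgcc
RBM34: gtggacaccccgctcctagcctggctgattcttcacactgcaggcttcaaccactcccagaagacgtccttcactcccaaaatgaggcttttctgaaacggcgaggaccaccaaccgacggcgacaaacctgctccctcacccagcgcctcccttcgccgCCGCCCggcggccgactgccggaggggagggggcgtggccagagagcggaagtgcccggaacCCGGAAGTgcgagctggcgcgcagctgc
RBM42: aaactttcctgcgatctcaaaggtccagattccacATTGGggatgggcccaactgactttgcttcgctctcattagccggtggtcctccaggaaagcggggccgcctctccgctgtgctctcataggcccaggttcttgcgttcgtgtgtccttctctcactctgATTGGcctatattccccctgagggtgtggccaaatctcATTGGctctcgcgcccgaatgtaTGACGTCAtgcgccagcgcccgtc
RBM8A: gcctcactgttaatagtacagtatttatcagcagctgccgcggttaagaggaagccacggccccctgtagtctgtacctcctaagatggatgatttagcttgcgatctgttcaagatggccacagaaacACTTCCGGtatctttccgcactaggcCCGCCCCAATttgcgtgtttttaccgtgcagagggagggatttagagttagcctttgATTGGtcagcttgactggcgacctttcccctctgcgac
For contrast, 2 of the 8 RBM genes without a gene-end peak in any library are shown, picked without a rule. They are RBM24 (chr6:17281814-17282063, plus strand), a muscle splicing regulator, and RBM11 (chr21:14215907-14216156, plus strand), a splicing regulator known from brain and testis. RBM19, a factor of ribosomal RNA processing, had none either, whereas RBM20, known from heart muscle, had a peak in clone 1. The annotated start of RBM24 used here lies inside the gene, whose span begins at 17281361.
RBM24: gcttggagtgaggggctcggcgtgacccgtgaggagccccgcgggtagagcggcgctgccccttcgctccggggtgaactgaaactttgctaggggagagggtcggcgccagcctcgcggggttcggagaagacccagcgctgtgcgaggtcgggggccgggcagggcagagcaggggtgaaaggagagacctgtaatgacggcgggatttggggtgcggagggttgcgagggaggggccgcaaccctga
RBM11: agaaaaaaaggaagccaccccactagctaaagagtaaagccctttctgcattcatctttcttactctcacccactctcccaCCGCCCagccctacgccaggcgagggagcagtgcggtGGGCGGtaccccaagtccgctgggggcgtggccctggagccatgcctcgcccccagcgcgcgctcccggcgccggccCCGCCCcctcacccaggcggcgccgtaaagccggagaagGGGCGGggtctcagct

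RBM genes carried gene-end peaks in all 3 ΔNSPs clones and in no control line. They were present at 24, 21 and 6 of 37 RBM genes in clones 1, 2 and 3 and at 0 of 37 in each of the 3 control lines. As shares, these were 64.9%, 56.8% and 16.2% of the RBM genes in clones 1, 2 and 3. Over all protein-coding genes the shares were 39.1%, 29.6% and 6.55% in clones 1, 2 and 3, and 0.00501%, 0% and 0% in control lines 1, 2 and 3. In each clone the RBM share was thus above that of all genes, while the absence from the control lines was shared with nearly every gene. The mean was 17.0 ± 9.64 RBM genes in the clones and 0 ± 0 in the control lines (SD, n = 3 each). The groups did not overlap, and the difference of the mean log10(count + 1) was 1.20, with an exact two-sided permutation p = 0.1, the smallest that 3 libraries against 3 allow. Any gene set with a peak in each clone and none in the control lines would give this p. The p therefore does not set RBM genes apart from other genes.

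**Figure D1:**
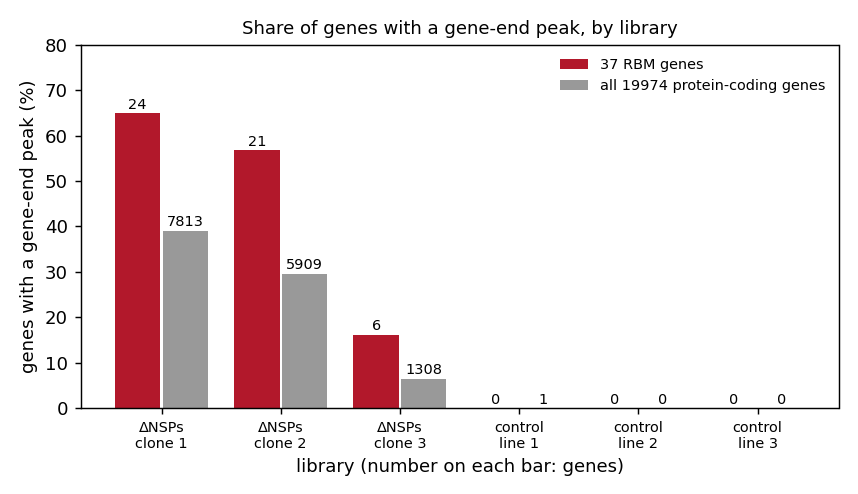
Share of genes with a gene-end peak (vertical axis, percent) in each of the 6 libraries, for the 37 RBM genes (red) and all 19974 protein-coding genes (grey), with the number of genes on each bar. The RBM bars stand at 64.9%, 56.8% and 16.2% in clones 1, 2 and 3 and at 0 in the control lines, and each clone's RBM bar is taller than its grey bar.

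In all, 17 of 37 RBM genes were recurrent (45.9%), against 23.3% of all protein-coding genes. All 3 clones had a gene-end peak at 5 RBM genes (13.5%, against 5.4%), 1 clone at 12 (32.4%, against 23.3%), and no library at 8 (21.6%, against 53.4%). Clone 1 held 8 of the 12 genes found in 1 clone, clone 2 the other 4 and clone 3 none. Clone 3, with the shortest of the clone lists, limited the number shared by all 3. The count of 17 rested on clones 1 and 2. It was 6 without clone 1 (16.2%, against 5.63% of all genes) and 5 without clone 2 (13.5%, against 6.21%), when both remaining clones had to hold the peak. It also depended on the threshold. At the strictest −log10 p by which any list was entered, 9 RBM genes remained (24.3%, against 12.7% of all genes). At a −log10 q of 5 or more, 9 remained (24.3%, against 11%). With the clone lists made equally long 5 were recurrent (13.5%, against 4.89%), and 0 were at a fold of 5 or more (0%, against 0.661%). Peaks in all 3 clones were found at 2 RBM genes at the strictest −log10 p (5.41%, against 2.25%) and at 1 with equally long lists (2.7%, against 1.15%).

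**Figure D2:**
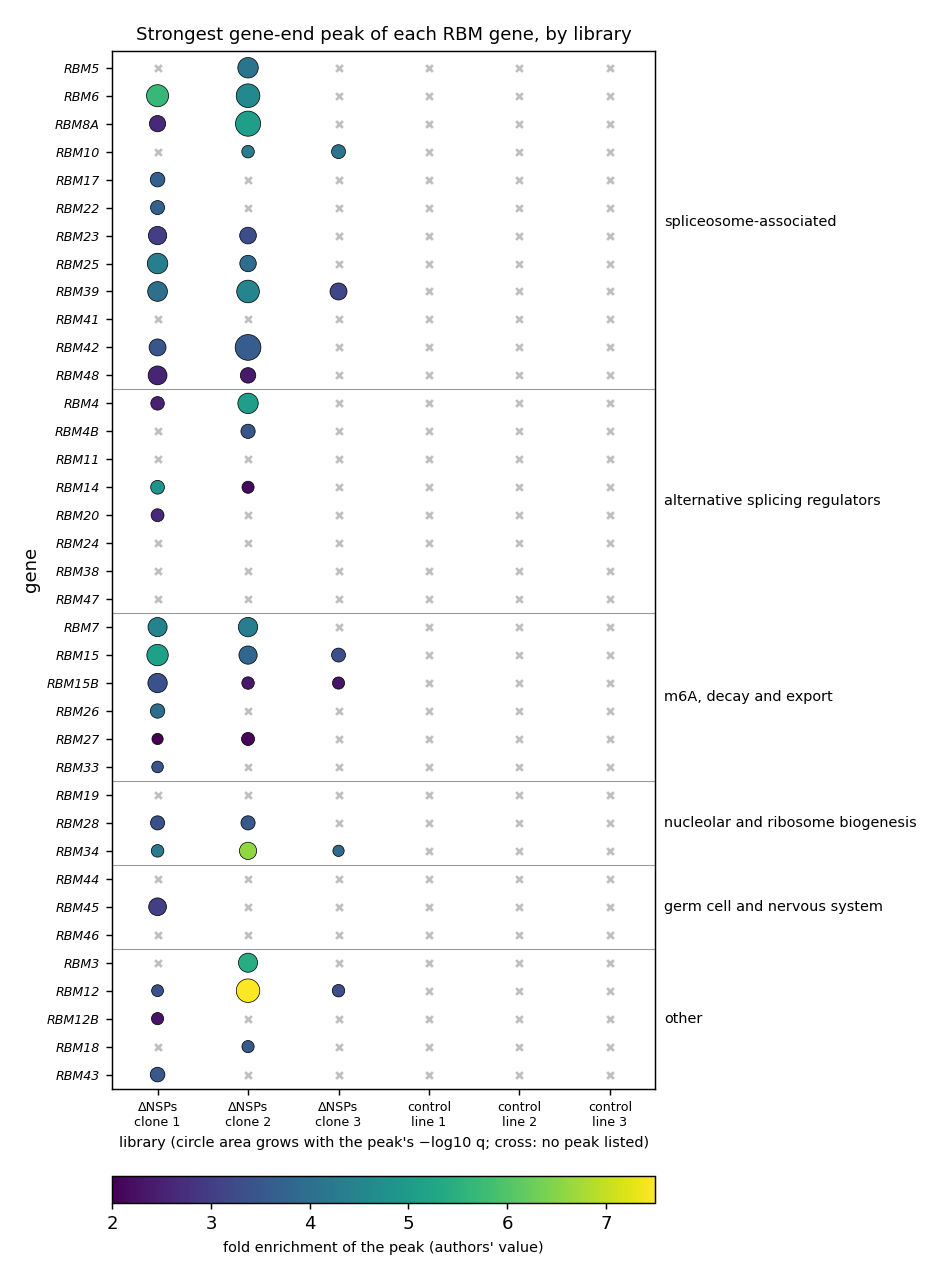
Strongest gene-end peak of each of the 37 RBM genes (rows, grouped by role) in each library (columns). Colour gives the fold enrichment, circle area grows with the −log10 q, and a cross marks a gene with no listed peak. Circles fill clones 1 and 2 most often, clone 3 has 6, and the control columns hold crosses alone.

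RBM39 was the RBM gene that stayed near the top of every clone's list. It encodes a relative of the splicing factor U2AF that takes part in alternative splicing, and lies on chromosome 20, 35701347 to 35742260. Its peaks spanned 35742256 to 35742639 in clone 1, 35742210 to 35742657 in clone 2 and 35742288 to 35742619 in clone 3. The folds were 3.99, 4.48 and 3.15 and the −log10 q values 11.0, 15.2 and 7.62 in clones 1, 2 and 3. RBM39 thus ranked within the top 8.54%, 5.35% and 7.5% of the peaks of clones 1, 2 and 3. The fold and p imply a pile-up of 45, 53 and 52 reads there, over a background of 10.5, 11.0 and 15.8 reads. It was the only RBM gene with a −log10 q of 5 or more in all 3 clones (1 of 37, 2.7%, against 1.26% of all protein-coding genes).

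RBM15 and RBM15B encode related adaptors that bring the m6A writer complex to its RNA targets, and both had peaks in all 3 clones. RBM15 lies on chromosome 1, 110339377 to 110346677. In clone 1 it had a peak at 110338306 to 110338864 with a fold of 5.11 and a −log10 q of 13.4, and one over the gene start at 110339063 to 110339420 with 2.25 and 5.69. In clone 2 the peak at 110339112 to 110339391 had a fold of 3.82 and a −log10 q of 9.13, and the one at 110338779 to 110338916 had 3.05 and 7.80. Clone 3 had the upstream peak alone, at 110338344 to 110338808, with a fold of 3.33 and a −log10 q of 4.38. The summit nearest the RBM15 start therefore lay 78 bp upstream of it in clone 1 and 186 bp in clone 2, but 787 bp in clone 3. Peaks of RBM15 were also counted for LOC124904276. RBM15B, on chromosome 3, 51391285 to 51397908, had a peak at its start in each clone, which covered the start itself in clone 1 and ended 49 and 19 bp upstream of it in clones 2 and 3. Its strongest peak lay at 51391041 to 51391376 in clone 1, 51391058 to 51391236 in clone 2 and 51391056 to 51391266 in clone 3. The folds were 3.36, 2.35 and 2.29 and the −log10 q values 10.5, 3.06 and 2.84 in clones 1, 2 and 3, so that clone 1 was the high one. The summits lay 175, 153 and 161 bp upstream of the RBM15B start.

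RBM12 and RBM34 completed the 5 genes. RBM12, on chromosome 20, 35648925 to 35664900, had peaks at 35664727 to 35665143, 35664875 to 35665047 and 35664879 to 35665018 in clones 1, 2 and 3. The folds were 3.33, 7.47 and 3.29 and the −log10 q values 2.58, 16.6 and 3.08. Clone 2 stood well above the other two, and its fold of 7.47 was the highest of any RBM gene in any library. The RBM12 peaks were also counted for CPNE1, which encodes a copine. In the sequence above, the RBM12 summits lay 105, 52 and 60 bp upstream of the start in clones 1, 2 and 3, and the CRE letters begin 63 bp and the ETS letters 110 bp upstream. RBM34 encodes a nucleolar protein and lies on chromosome 1, 235131183 to 235161250. At its start it had peaks at 235161066 to 235161587, 235161176 to 235161314 and 235161100 to 235161255 in clones 1, 2 and 3, with folds of 4.25, 3.96 and 3.86. Their −log10 q values were low, at 3.16, 4.0 and 2.10, and the implied pile-ups were 11, 17 and 12 reads over backgrounds of 1.83, 3.55 and 2.37 reads. Clone 2 also had a peak near the other end of RBM34, at 235132125 to 235132209, with a fold of 6.59 and a −log10 q of 7.95.

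Of 12 spliceosome-associated RBM genes, 8 were recurrent (against 23.3% of all genes), 3 had a gene-end peak in 1 clone (against 23.3%) and 1 had none (against 53.4%). RBM6, a splicing regulator next to RBM5 on chromosome 3, had a fold of 5.69 in clone 1 and 4.59 in clone 2, with −log10 q values of 14.3 and 16.8 in clones 1 and 2. The value of 5.69 was the highest RBM fold in clone 1, from a peak at 49939903 to 49940638 that was also the widest RBM peak, at 736 bp. RBM8A, the Y14 subunit of the exon junction complex, had a fold of 2.61 in clone 1 and 5.06 in clone 2. RBM42 had 3.43 and 3.61, and its −log10 q of 20.4 in clone 2 was the highest of any RBM gene. RBM25, a regulator that associates with the U1 particle, had 4.34 and 3.92, and RBM23, the paralog of RBM39, had 3.01 and 3.27. RBM48, which works with ARMC7 in the minor spliceosome, had 2.54 and 2.38 in clones 1 and 2. RBM10, which promotes exon skipping, was the only member present in clones 2 and 3 but not in clone 1, with folds of 4.27 and 4.14. The value of 4.14 was the highest RBM fold in clone 3. Its peaks, at 47144681 to 47144789 in clone 2 and 47144921 to 47145071 in clone 3, did not overlap, and on chromosome X they were counted for NDUFB11 too. RBM5, a splicing regulator of apoptosis genes, had a peak in clone 2 (fold 4.12) and none in the other clones. RBM17 (3.65) and RBM22 (3.68), which work within the spliceosome, had one in clone 1 only. RBM41 had no gene-end peak.

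Of 6 members that act in m6A deposition, RNA decay and export, 4 were recurrent (against 23.3% of all genes), and the other 2 had a gene-end peak in clone 1. RBM7, a subunit of the NEXT adaptor of the nuclear exosome, had a fold of 4.45 in clone 1 and 4.31 in clone 2, with −log10 q values of 10.2 and 10.5 in clones 1 and 2. RBM27, of the PAXT adaptor that directs polyadenylated nuclear RNA to decay, had the lowest folds of any RBM gene in both clones, 1.96 in clone 1 and 2.09 in clone 2. Its implied pile-ups were 44 and 56 reads, over backgrounds of 21.9 and 26.2 reads. RBM26, also of PAXT, had a fold of 3.95 and RBM33 one of 3.44 in clone 1. Of the 3 members of ribosome biogenesis and the nucleolus, RBM28 had a fold of 3.37 in clone 1 and 3.51 in clone 2, RBM34 was described above, and RBM19, a factor of ribosomal RNA processing, had no gene-end peak.

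Of 8 members grouped as regulators of alternative splicing, 2 were recurrent (against 23.3% of all genes). In this group 4 had no gene-end peak in any library (against 53.4%), so both shares were near those of all genes. Each gene was given 1 role. RBM5, RBM6, RBM10, RBM25 and RBM39 also act in the choice of exons but were grouped as spliceosome-associated, so the shares of both groups depend on that assignment. RBM4, which controls exon choice, had a fold of 2.51 in clone 1 and 5.06 in clone 2. RBM14, a paraspeckle protein, had overlapping peaks at its start with folds of 2.22 in clone 1 and 2.14 in clone 2, and a separate clone 1 peak, with a fold of 4.83, at a summit 462 bp inside the gene. RBM14, RBM4 and RBM4B lie side by side on chromosome 11, and RBM4B had a peak in clone 2 alone, with a fold of 3.46. RBM20, which splices titin in heart muscle, had a peak in clone 1 with a fold of 2.64, at 110644058 to 110644303 on chromosome 10. Its summit lay 192 bp upstream of the annotated start. That start is inside the gene, whose span begins at 110643245, so the peak itself lay 813 bp inside the gene. The 4 members without a gene-end peak were RBM11, RBM24, RBM38 and RBM47. RBM38 is a p53-induced regulator and RBM47 a cofactor of APOBEC1 in RNA editing. Of the members known from germ cells and the nervous system, RBM44 and RBM46 had no gene-end peak, and RBM45 had a peak in clone 1 with a fold of 3.03. Among the other members, RBM3, a cold-induced protein, had a fold of 5.43 and a −log10 q of 10.2 in clone 2 and no peak in clones 1 and 3. RBM18 had a fold of 3.52 in clone 2, and RBM12B and RBM43 had folds of 2.28 and 3.49 in clone 1.

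Of the 8 RBM genes without a gene-end peak, 3 (RBM19, RBM38 and RBM47) held a peak inside the gene, away from its ends. The 8 genes differed in how far from a gene end the nearest peak lay. For RBM38 it was inside the gene, 1.66 kb from a gene end, in clone 2, and 26.4 kb away in clone 1 and 20.7 kb in clone 3. For RBM41 it was 566 kb and 440 kb in clones 1 and 2. RBM46, expressed in germ cells, had its nearest peak 930 kb away in clone 1 and 154 kb in clone 2. At the edge of the window, the RBM20 peak of clone 1, 813 bp from the gene end, was the farthest that counted as a gene's nearest peak, and the RBM38 peak of clone 2, with a fold of 5.17, was the nearest that did not.

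Gene-end peaks of RBM genes sat at the start of the gene. Of the 37 genes, 33 matched the RefSeq promoter table and so had a strand. All 20, 19 and 5 of these with a gene-end peak in clones 1, 2 and 3 had it at the 5′ end, and the RBM34 peak in clone 2 was the only one at a 3′ end. Among all genes with a strand, 96%, 92.5% and 91.9% of those with a gene-end peak had one at the 5′ end in clones 1, 2 and 3, so position at the start was common to genes at large. The median summit of the strongest 5′ peak lay 122, 64 and 161 bp upstream of the start in clones 1, 2 and 3. It was within 250 bp of the start for 17 of 20, 18 of 19 and 4 of 5 genes. The exceptions were RBM15 in clones 1 and 3, RBM14 and RBM42 in clone 1, and RBM10 in clone 2.

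**Figure D3:**
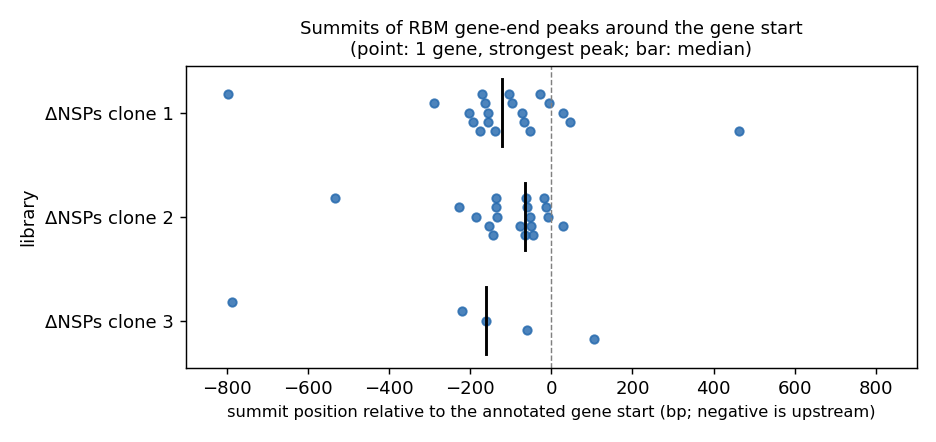
Position of the strongest 5′ gene-end peak's summit relative to the annotated start (horizontal axis, bp, negative is upstream), 1 point per RBM gene in clones 1, 2 and 3, with the median as a bar. Vertical offsets within a clone only separate the points. Most points lie within 250 bp of the start, with medians 122, 64 and 161 bp upstream.

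At RBM genes the peaks of different clones mostly overlapped. Of the 17 recurrent RBM genes, 16 had peaks that overlapped by 1 bp or more in every pair of clones that held one, the exception being RBM10. Clones 1 and 2 overlapped at 16 of 16 shared genes, clones 1 and 3 at 5 of 5, and clones 2 and 3 at 5 of 6. At 9 of the 37 genes the peak was also counted for another gene symbol. Among these were PRMT5 for RBM23, C11orf71 for RBM7, MRRF for RBM18, NDUFB11 for RBM10 and CPNE1 for RBM12. At RBM14 and RBM27 the second symbol was that of a read-through gene, RBM14-RBM4 and RBM27-POU4F3. A peak at such a shared site cannot be assigned to either gene. Overlap between clones and sharing with another symbol were not counted over all genes. Neither is therefore shown to be particular to RBM genes.

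The folds of RBM peaks lay around those of gene-end peaks at large. Their median was 3.43, 3.92 and 3.31 over 28, 23 and 6 peaks in clones 1, 2 and 3, against 3.54, 3.74 and 2.98 over all gene-end peaks of the same clones. Median widths were 314, 155 and 184 bp for RBM genes and 307, 121 and 186 bp for all gene-end peaks in clones 1, 2 and 3. The implied pile-up at RBM summits ran from 11 to 84 reads in clone 1, 11 to 93 in clone 2 and 12 to 52 in clone 3, with medians of 37.5, 39.0 and 26.5 reads. Folds therefore came from few reads at genes such as RBM34 and RBM10 (11 and 21 reads in clones 2 and 3), and from many reads over a high background at RBM27 and RBM48 (84 and 62 reads in clones 1 and 2).

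The recurrent RBM genes were not those richest in G+C upstream of the start. The median G+C content of the 250 upstream bases was 58.4% for the 15 recurrent RBM genes with a sequence, 63.6% for 10 with a peak in 1 clone and 64.0% for 8 in no library, against 62.4% over 15812 protein-coding genes. The ranges overlapped, with highest values of 74.8%, 78.4% and 82.8%. RBM38 had the highest G+C content of the family (82.8%) and RBM41 the lowest (41.6%), and neither had a gene-end peak. The CCAAT letters were found upstream of 19 of 33 RBM genes (57.6%, against 34.4% of all promoters) and GGGCGG upstream of 20 (60.6%, against 56.0%). RBM15 holds CCAAT 4 times in the sequence shown, and RBM42 holds it 3 times on the opposite strand. The ETS letters CCGGAAGT occurred at RBM8A, RBM12, RBM19 and RBM34 (12.1%, against 5.09%) and the CRE letters TGACGTCA at RBM12, RBM18 and RBM42 (9.09%, against 2.32%). The NRF1 motif was found at RBM23 alone (3.03%, against 1.49%), TATAAA at RBM26 and RBM47 (6.06%, against 9.25%), and the YY1 motif at none (against 0.411%). A match describes the letters and is not evidence of binding. RBM19 had both the ETS and the CCAAT letters and no gene-end peak in any library.

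Partner genes were counted from 7 lists of complexes in which RBM proteins work. Over these lists, 46 of 83 genes were recurrent (55.4%), against 23.3% of all protein-coding genes. These were 13 of 19 genes of the U1 and U2 particles, 11 of 20 of the tri-snRNP and spliceosome activation, 7 of 12 SR proteins, 6 of 10 exon junction complex genes, 3 of 6 m6A writer genes and 3 of 5 NEXT and PAXT genes. Of the minor spliceosome genes 3 of 11 were recurrent, a share below that of the RBM genes and near that of all genes. U2AF2, which reads the polypyrimidine tract at 3′ splice sites, had folds of 4.61, 4.81 and 3.96 in the 3 clones in turn. The U2AF2 peaks were also counted for CCDC106 and EPN1, so they cannot be assigned to U2AF2 alone. In the same list, SF1 had lower folds of 2.56, 4.75 and 2.54. SNRPA, whose peaks were also counted for ACTMAP, had folds of 2.55, 3.72 and 2.69. SRSF10, a splicing regulator of the SR family, had 4.52, 4.34 and 3.18. MAGOH, which pairs with RBM8A, was recurrent, and its paralog MAGOHB had none. Of the 6 m6A writer genes, WTAP, METTL14 and ZC3H13 were recurrent and none had a peak in all 3 clones (against 5.4% of all genes). The adaptors RBM15 and RBM15B had peaks in all 3 clones, but neither did at a −log10 q of 5 or more. A difference between writers and adaptors was not tested. Of the 19 genes of the U1 and U2 particles, 3 (SF3B3, SNRPB2 and U2AF1) had no gene-end peak in any library (against 53.4% of all genes). Most of these genes are used by all cells, and their level of use was not measured here.

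**Figure D4:**
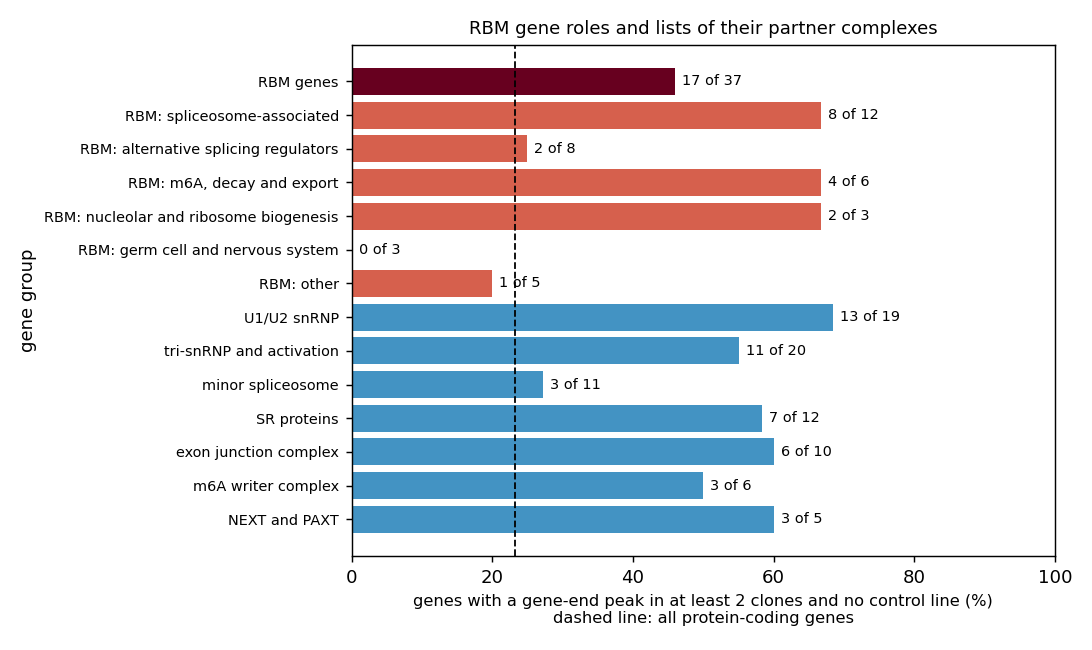
Share of recurrent genes (horizontal axis, percent) for the 37 RBM genes (dark red), their role groups (light red) and partner complexes (blue), with counts beside the bars. The dashed line marks 23.3% of all protein-coding genes. Spliceosome-associated RBM genes (8 of 12) stand right of it, and germ cell and nervous system members (0 of 3) stand at 0.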

How the data were processed

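ATAC-seq peak lists of 6 U937 libraries, 3 ΔNSPs clones and 3 control lines grouped by sample title, were used as deposited. Per the submitters' processing notes, the tools were FastQC, Bowtie2, Picard and MACS2 and the build GRCh38. Versions, settings and any transposase shift are not given in the sources. The authors deposited a fold enrichment (a ratio over local background), and for each summit a −log10 p and q, a score that was not used, and a summit offset, which was below 0 in 127 lines and set to 0. Peaks were called per library, as the peak names show.

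Lines sharing an interval became 1 peak, described by its highest summit. Gene ends came from RefSeq (GRCh38.p14), strand and upstream sequence from its promoter table (33 of 37 RBM genes matched). Distances from the annotated start used the start in that promoter table, which can lie inside the gene, as at RBM20 and RBM24. Peaks were assigned to a gene at 1 bp of overlap or more. The pile-up and background at a summit were obtained by taking the fold to be the ratio of pile-up + 1 to background + 1 and the p to be the upper Poisson tail; they matched the deposited −log10 p within 3.75e-05 at RBM peaks. The gene assignment and the solved pile-ups were tested on simulated data. Library counts were compared by an exact permutation test (SciPy 1.17.1, pandas 2.3.3, Python 3.11.15). P-values measure only the spread between these libraries. Lists of genes have counts beside all genes and no test. The members, roles and partner lists were chosen with earlier results of these data known.

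By rule, genes in all 3 clones were named in full, those in 2 clones with their folds, and up to 3 partner genes per list. Folds of genes in 1 clone were added. Alternatives were the window (500 and 2500 bp), a −log10 q or a fold of 5 or more, the summit in the window, equally long lists (2188 peaks), the annotated start alone, untransformed counts, a replicate block and each library left out. A −log10 p of at least 8.0, the strictest entry of any list, and equally long lists for the count in all 3 clones were added after seeing the data. Sites without a listed peak have no value, and read totals are unknown, so no interval was given.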

Additional observations from a re-analysis of the deposited data

Results flagged for a closer look

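Peaks within RBM genes but away from their ends did not enter the comparisons. They numbered 4, 11 and 1 in clones 1, 2 and 3 and 0 in each control line. The lists of control lines 1, 2 and 3 held only 13, 4 and 2 peaks, so absence from them is not particular to these peaks. The same count was not made over all genes. RBM20, 196224 bp long and known from heart muscle, held 2, 6 and 1 of them in clones 1, 2 and 3. In RBM20 the clone 3 peak at 110739835 to 110740214 (fold 3.86) overlapped a clone 2 peak at 110739822 to 110739948 (fold 3.74). RBM47, 207573 bp long, held 3 in clone 2 and none in clones 1 and 3. RBM33 had 1 each in clones 1 and 2, at 155764270 to 155764498 and 155764246 to 155764361, with folds of 2.57 and 3.65. RBM19 had 1 in clone 1 and RBM38 1 in clone 2. No difference between groups was tested for these peaks.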

How the results depend on the processing

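The difference in RBM genes per library stayed above 0 under every alternative run. The control counts were all 0, so it could not fall below 0, and its sign is no check on the result. On the log10 scale the difference ranged from 1.09 to 1.37 with each clone or control line left out. The exact permutation p was 0.2 there, the smallest that 2 libraries against 3 allow, and 0.1 in the unpaired alternatives with all 6 libraries except a fold of 5 or more. That gave 0.4, with 2, 5 and 0 RBM genes in clones 1, 2 and 3. With the replicate block the difference stayed at 1.20 and the exact sign-flip p was 0.25, the smallest that 3 pairs allow. The numbers name separate lines and clones, and the control counts are all 0, so pairing could not be checked from the data. The count of recurrent RBM genes, 17 as reported, was 9 of 37 with a −log10 q of 5 or more (24.3%, against 11% of all genes). It was also 9 with the strictest −log10 p of any list (24.3%, against 12.7% of all genes). It was 5 with equally long lists (13.5%, against 4.89% of all genes) and 0 with a fold of 5 or more (0%, against 0.661%). With 1 clone left out it was 5 to 16. The count in all 3 clones was 1 with a −log10 q of 5 or more (RBM39, 2.7%, against 1.26% of all genes). It was 2 with the strictest −log10 p (RBM15 and RBM39, 5.41%, against 2.25%). It was 1 with equally long lists (RBM39, 2.7%, against 1.15%). These settings leave fewer peaks by construction. Windows of 500 or 2500 bp, summits and annotated starts moved neither count by over 1.5 times. RBM15 left the count in all 3 clones at 500 bp.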
